A study of Mus musculus with 9 samples.

Results

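Hemoglobin transcripts and the erythroid heme enzyme Alas2 were followed through kidney RNA of control, hindlimb-unloaded and drug-treated unloaded mice. The set held 5 genes, matched by symbol among the 54532 genes of the deposited expression table. Hba-a1 (ENSMUSG00000069919) and Hba-a2 (ENSMUSG00000069917) encode the adult alpha chains of hemoglobin, Hbb-bs (ENSMUSG00000052305) and Hbb-bt (ENSMUSG00000073940) encode the adult beta chains, and Alas2 (ENSMUSG00000025270) encodes the erythroid form of the first enzyme of heme synthesis. They were chosen by their FPKM in these same 9 libraries, as a measure of blood in the tissue, so their levels are given as a description and carry no test.

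Kidneys of male C57BL/6j mice aged 4 months were profiled by RNA-seq of poly-T-selected RNA in 9 libraries, 3 in each of 3 groups. Ground controls (GC1 to GC3) stayed untreated. Hindlimb-unloaded mice (HU1 to HU3), held with the hind limbs off the floor as a ground-based model of weightlessness, received vehicle. A further unloaded group (PBA1 to PBA3) received 4-PBA, the chemical chaperone 4-phenylbutyric acid, at 100 mg per kg per day by intraperitoneal injection. Unloading and vehicle cannot be told apart, because the controls had neither. The labels call the samples of a group replicates of renal tissue without tying each to an animal, so the p-values below measure the spread between these samples. All values are FPKM, the authors' fragments per kilobase of gene scaled to library size, unless a log2 scale is named.

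Recovered read totals ran from 7595631 in HU2 to 15141784 in GC2. Mitochondrial transcripts took 63.7% to 79.3% of reads in the unloaded libraries, against 14.8% and 18.9% in GC2 and GC1 and 13.7% and 15.2% in PBA2 and PBA1. GC3 at 49.7% and PBA3 at 67.1% stood apart from their groups. Markers of kidney segments were present in all groups, but their summed FPKM was 48243 to 59509 in ground controls, 2499 to 3277 in unloaded libraries, and 30687, 56695 and 8353 in PBA1, PBA2 and PBA3. Most of that sum came from Kap, an androgen-regulated proximal tubule transcript. Results that rest on GC3 or PBA3 are therefore given with and without them.

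Hemoglobin is a tetramer of alpha and beta chains that each hold a heme, and globin mRNA is the dominant message of late erythroblasts and reticulocytes. Mature red cells have no nucleus and lose their RNA as they age, so whole blood still holds abundant globin mRNA carried mainly by reticulocytes. The adult kidney is not a site of red cell formation in healthy mice. It does produce erythropoietin, filters free hemoglobin at the glomerulus and takes it up in the proximal tubule. In tissue RNA of this kind, fewer red cells in the sample and less globin RNA per cell cannot be told apart.

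The 4 globin genes form near-identical pairs, and the bases that separate each pair within the coding sequence are shown because they limit how far reads can be assigned to 1 copy. Hba-a1 and Hba-a2 lie on chromosome 11 (mm10, plus strand, 32283511 to 32284465 and 32296489 to 32297298), 12023 bases apart. Hbb-bt and Hbb-bs lie on chromosome 7 (minus strand, 103812524 to 103813996 and 103826534 to 103828096), 12537 bases apart. Each has 3 exons, and their coding sequences are 426 bases in the alpha pair and 441 bases in the beta pair. Within each pair the coding sequences differ at 1 base, C381T from Hba-a1 to Hba-a2 and C417T from Hbb-bs to Hbb-bt, counted from the A of the start codon. Both changes fall on the last base of a codon in exon 3 and leave the amino acid as it was. The 41 coding bases around each, written 5′ to 3′ on the gene's strand from the GENCODE transcripts on GRCm38 with the differing base in capitals, were:
Hba-a1 (chr11:32284323-32284363): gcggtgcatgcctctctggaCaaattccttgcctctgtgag
Hba-a2 (chr11:32297140-32297180): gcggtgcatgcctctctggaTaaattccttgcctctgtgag
Hbb-bs (chr7:103826672-103826712): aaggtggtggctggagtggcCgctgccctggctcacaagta
Hbb-bt (chr7:103812663-103812703): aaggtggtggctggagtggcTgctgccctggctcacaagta

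Over whole transcripts the copies diverged more. Of the 50-base stretches of the Hba-a1 transcript, 67.5% also occurred in Hba-a2, and 86.9% of those of Hba-a2 occurred in Hba-a1. For Hbb-bs and Hbb-bt the shares were 65.8% and 58.3%. The split of reads within a pair is therefore uncertain, since the sources used here do not give how reads that match both copies were counted, and the pair sums are printed beside the single genes. Between alpha and beta genes the coding identity was 57.5%, so the pairs themselves are distinct.

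Promoter sequence is shown for 1 gene of each pair, since the 4 globins had their lowest mean in the same group. The part of these sequences in that pattern was not tested. In the 100 bases before the RefSeq start (GRCm38.p6), capitals mark 3 short motifs, each searched by its letters on both strands. This start differs from the gene start given above, so the windows of Hba-a1 and Hbb-bs lie within those gene spans. CCAAT is a common element of vertebrate promoters. Klf1 and related factors bind CACCC. Initiation of transcription uses elements such as ATATAA. The sequences, 5′ to 3′ on the gene's strand, were:
Hba-a2 (chr11:32296392-32296491): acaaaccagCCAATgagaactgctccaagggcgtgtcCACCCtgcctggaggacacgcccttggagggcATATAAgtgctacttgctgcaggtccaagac
Hbb-bs (chr7:103827929-103828028): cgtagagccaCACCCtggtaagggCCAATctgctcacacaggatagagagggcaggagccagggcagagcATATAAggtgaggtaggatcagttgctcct

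All 4 globin windows held each of these 3 motifs. Among 32851 mouse promoter windows of the same length, 27.2% held CACCC, 18.9% held CCAAT and 3.74% held ATATAA. With gaps counted, the Hba-a1 and Hba-a2 windows were 94.2% identical and those of Hbb-bs and Hbb-bt 75.5%. The alpha windows matched at all 97 bases that aligned without a gap. The Alas2 window held 3 CACCC matches, all on the minus strand, and neither CCAAT nor ATATAA. It also held 1 match to the letters bound by GATA factors, which 10.4% of windows held and no globin window did. These were searched as AGATAA together with its variants at either end, namely TGATAA with another first base, AGATAG with another last base, and TGATAG with both. These matches are descriptions of letters in the window.

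Alpha chain transcripts were the most abundant of the set. Hba-a1 stood at 227, 330 and 997 FPKM in GC1, GC2 and GC3, at 79.6, 150 and 135 in HU1, HU2 and HU3, and at 189, 672 and 542 in PBA1, PBA2 and PBA3. Every unloaded library lay below every control and every treated library. By FPKM, Hba-a1 ranked between 14 (GC3) and 254 (HU1) among genes outside the mitochondrial genome. Hba-a2 stood at 59.6, 84.6 and 403 FPKM in the ground controls, at 58.0, 94.9 and 76.0 in the unloaded libraries, and at 72.5, 248 and 315 in the treated libraries. Here GC1 and GC2 were as low as the unloaded libraries, and only GC3, PBA2 and PBA3 stood clearly above them.

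Beta chain transcripts were less abundant. Hbb-bs stood at 170, 253 and 441 FPKM in ground controls, at 60.8, 56.1 and 59.9 in unloaded libraries, and at 136, 395 and 47.2 in treated libraries. The unloaded libraries lay together below all controls, while PBA3 lay lower still and PBA1 and PBA2 lay above them. Hbb-bt was the weaker beta gene, at 25.0, 45.6 and 69.0 FPKM in ground controls, 7.39, 9.14 and 16.8 in unloaded libraries, and 18.0, 74.2 and 26.5 in treated libraries. Its unloaded values were below all others, with HU3 at 16.8 just under PBA1 at 18.0. The Hbb-bt values of the unloaded libraries rested on 31, 20 and 80 reads, against 342 to 767 in ground controls.

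Alas2 (chromosome X, plus strand, 150547375 to 150570638) was near the lower limit of the table. It stood at 0.599, 1.67 and 4.37 FPKM in ground controls, at 0, 1.60 and 2.76 in unloaded libraries, and at 1.27, 1.43 and 0 in treated libraries. The 3 groups overlapped fully, and the reads behind these values numbered 28, 96 and 115, then 0, 12 and 45, then 76, 79 and 0. A count of 0 allows up to 3 reads, which is 0.209 FPKM in HU1 and 0.200 FPKM in PBA3, and covers counting error only. Alas2 lies on the opposite strand to Apex2, which read 0 to 0.742 FPKM across the libraries. Libraries were directional per the labels, but the strand setting of the counting is not given in the sources used here, so reads of the overlapping genes may not be fully separated.

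**Figure D1:**
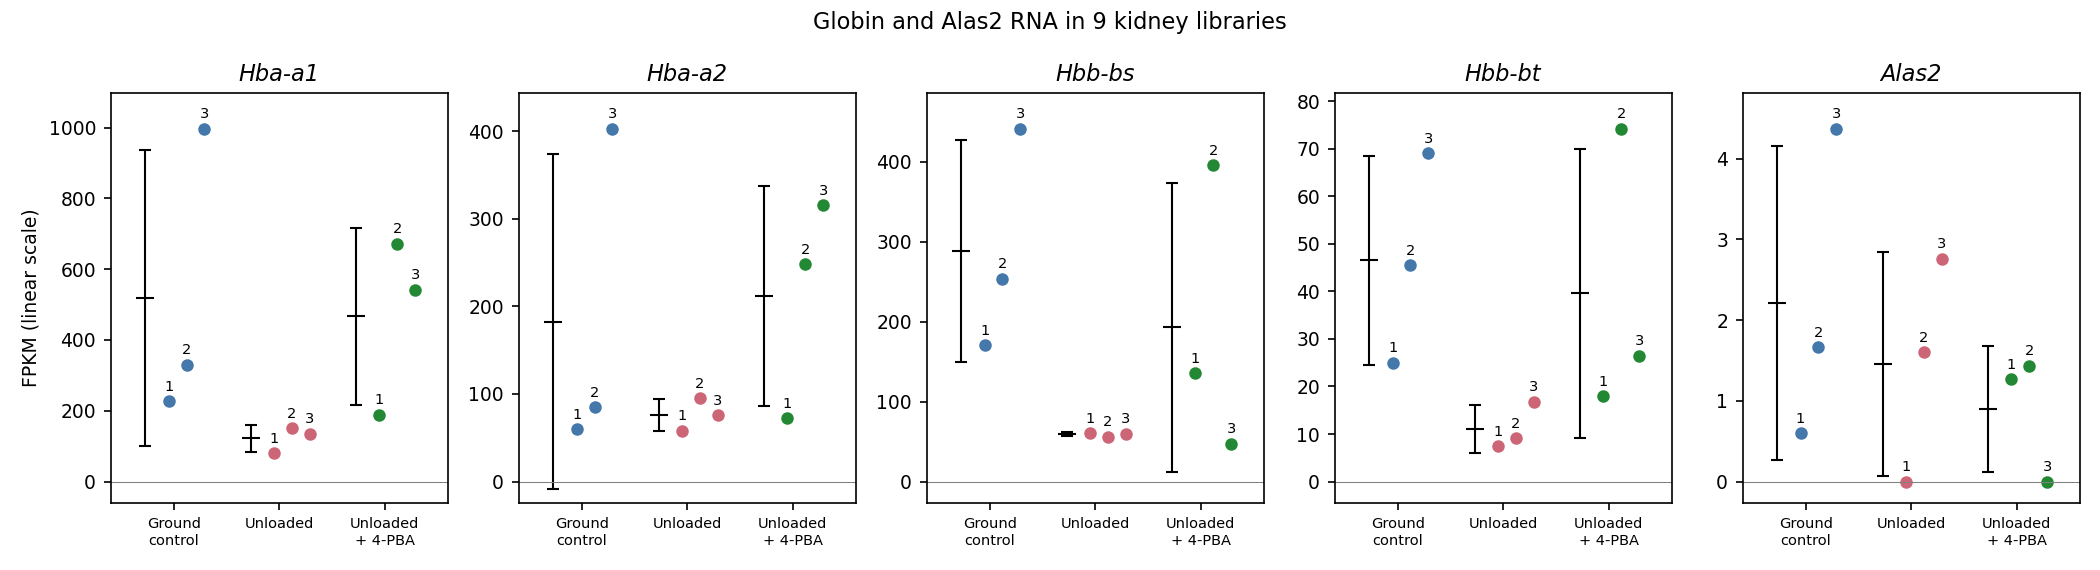
FPKM (linear axis, own scale per gene) of Hba-a1, Hba-a2, Hbb-bs, Hbb-bt and Alas2 in ground control, unloaded and 4-PBA-treated unloaded kidney libraries. Numbered points are libraries, and the bar beside them is the mean with its SD (n = 3). The unloaded points sit lowest and closest together for Hba-a1, Hbb-bs and Hbb-bt, with PBA3 as the exception for Hbb-bs.

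The first comparison, unloaded against ground control kidney, addresses unloading together with vehicle. Summed over the 4 genes, globin FPKM averaged 268 ± 55.1 in unloaded libraries and 1035 ± 766 in ground controls (SD, n = 3 each), a ratio of 3.86 in favour of the controls. Without GC3 the control mean was 598 FPKM (n = 2) and the ratio 2.23. Hba-a1 averaged 122 ± 37.3 against 518 ± 418, Hbb-bs 58.9 ± 2.53 against 288 ± 139, and Hbb-bt 11.1 ± 4.99 against 46.5 ± 22.0. The weakest contrasts were Hba-a2, at 76.3 ± 18.4 against 182 ± 191, and Alas2, at 1.46 ± 1.39 against 2.21 ± 1.94. The unloaded values were below all control values in 3 of the 5 genes, while 19.4% of all 12642 genes tested had groups separated in that direction and 37.7% in either direction.

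Differences on the log2(FPKM + 1) scale, from a limma fit across all genes, were −1.83 ± 0.63 (SE) for Hba-a1, −2.16 ± 0.66 for Hbb-bs and −1.94 ± 0.55 for Hbb-bt. They were −0.75 ± 0.74 for Hba-a2 and −0.41 ± 0.60 for Alas2, each smaller than or close to its own SE. The median of the 5 was −1.83, beside −0.03 over all genes tested. Summed by pair, the alpha genes differed by −1.51 ± 0.66 and the beta genes by −2.13 ± 0.61. The sums lessen the effect of the uncertain split between copies but do not remove it, since the copies differ in gene length. GC3 carried much of the alpha difference: without it Hba-a1 stood at −1.21, Hba-a2 at 0.07 and Alas2 at 0.05, whereas Hbb-bs stood at −1.80 and Hbb-bt at −1.60.

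The size of the globin contrast moved with the denominator. As a share of reads outside the mitochondrial genome, the control mean of the 4 globins was 3.40 times the unloaded mean, and as a share of all reads it was 7.30 times. Without GC3 these ratios were 1.94 and 5.53. The median of the 5 log2 differences was −1.61 and −2.89 on these scales, while the median of all genes tested was 0.13 and −0.78. Hba-a1, Hbb-bs and Hbb-bt were below the controls on each of these scales and in all 19 settings tried. Hba-a2 was below in 17 and Alas2 in 16. These 19 include the main fit and settings that could not change a difference. Those were no filter, a replicate block, only the 6 samples compared, and leaving out a treated library.

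Unloaded kidney with 4-PBA was next set against unloaded kidney with vehicle, which asks about the drug. This comparison shares the unloaded libraries with the first, so opposite signs are partly built in. Summed globin FPKM averaged 912 ± 488 in treated libraries, 3.40 times the unloaded mean. The treated means were 467 ± 250 for Hba-a1, 212 ± 125 for Hba-a2, 193 ± 181 for Hbb-bs and 39.5 ± 30.3 for Hbb-bt, and each spread was wide. Treated values were above all unloaded values in 2 of the 5 genes, Hba-a1 and Hbb-bt, and 10.1% of all genes tested had groups separated in that direction (20.3% in either).

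On the log2 scale the treated minus unloaded difference was 1.79 ± 0.63 (SE) for Hba-a1, 1.24 ± 0.74 for Hba-a2, 1.20 ± 0.66 for Hbb-bs and 1.57 ± 0.55 for Hbb-bt. Alas2 stood at −0.28 ± 0.60, from a treated mean of 0.900 ± 0.784 FPKM. The median of the 5 was 1.24, beside 0.02 over all genes tested. PBA3 pulled Hbb-bs down and Hba-a2 up: without it the differences were 1.96 for Hbb-bs and 0.84 for Hba-a2, and Alas2 turned to 0.13. Without PBA2, the treated library with the most beta globin, Hbb-bs stood at 0.44. The 4 globins were above the unloaded level in all 19 settings, though Hbb-bt no longer cleared every unloaded library as a share of reads outside the mitochondrial genome. Here no filter, a replicate block, only the 6 samples compared and leaving out a control library could not change a difference.

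The last comparison set treated unloaded kidney against ground control kidney. All 5 genes overlapped between these groups, where 8.00% of genes tested did not (4.37% higher and 3.63% lower in treated kidney). Differences on the log2 scale were −0.04 ± 0.63 (SE) for Hba-a1, 0.49 ± 0.74 for Hba-a2, −0.96 ± 0.66 for Hbb-bs, −0.37 ± 0.55 for Hbb-bt and −0.68 ± 0.60 for Alas2. Without GC3 they were 0.58 for Hba-a1, 1.32 for Hba-a2, −0.60 for Hbb-bs, −0.03 for Hbb-bt and −0.23 for Alas2. Without GC3 and PBA3 they were 0.38, 0.91, 0.16, 0.12 and 0.19 in the same order, so the signs of Hbb-bs, Hbb-bt and Alas2 turned. The summed globin mean was lowest in unloaded kidney, while the order of the other two groups rested on GC3. It was 912 FPKM in treated and 1035 in control libraries, but the control mean without GC3 was 598, and the treated mean was 902 without PBA3.

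Ratios within a library do not depend on the denominator of FPKM, and they differed between libraries. Those within a pair rest on the uncertain split of reads between copies, whereas alpha over beta uses the pair sums, on which the split weighs less. Hba-a1 over Hba-a2 was 3.81, 3.90 and 2.48 in ground controls, 1.37, 1.58 and 1.78 in unloaded libraries, and 2.60, 2.71 and 1.72 in treated libraries. All unloaded ratios were below all control ratios, and PBA3 lay within the unloaded range. Alpha over beta was 1.47, 1.39 and 2.74 in ground controls, 2.02, 3.76 and 2.76 in unloaded libraries and 1.70, 1.96 and 11.6 in treated libraries. PBA3 held 4053 alpha reads but 342 beta reads, which set it apart from every other library. Hbb-bs over Hbb-bt was 6.81, 5.56 and 6.39 in ground controls, 8.24, 6.13 and 3.57 in unloaded libraries, and 7.53, 5.33 and 1.78 in treated libraries, with PBA3 the lowest of all. Alas2 reads per 1000 globin reads were 3.86, 7.27 and 7.17, then 0, 16.4 and 30.4, then 9.56, 3.23 and 0, so Alas2 did not follow globin from library to library.

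**Figure D2:**
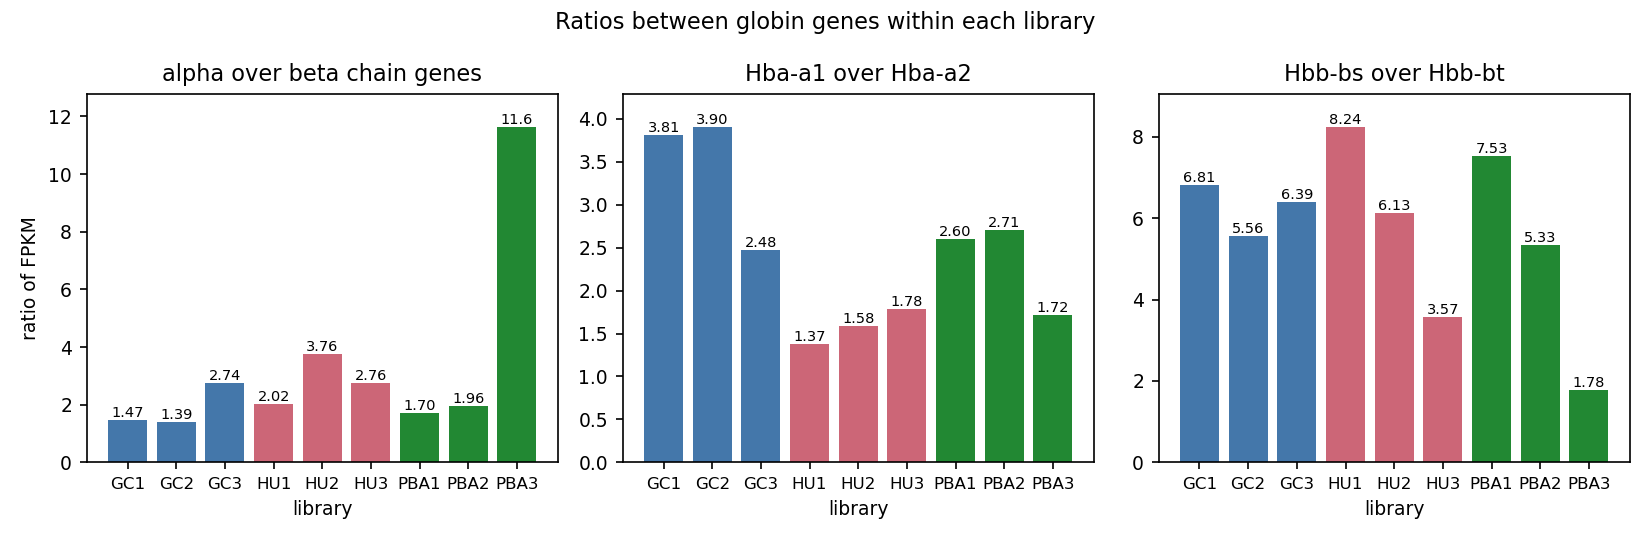
Ratio of FPKM between globin genes in each library: alpha genes over beta genes, Hba-a1 over Hba-a2, and Hbb-bs over Hbb-bt, on linear axes from 0. Bars are single libraries coloured by group. PBA3 has the highest alpha over beta ratio (11.6) and the lowest Hbb-bs over Hbb-bt ratio (1.78), and the unloaded libraries have Hba-a1 over Hba-a2 ratios of 1.37 to 1.78.

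Across the 9 libraries, Pearson's r of log2(FPKM + 1) was 0.89 between Hba-a1 and Hba-a2 and 0.85 between Hbb-bs and Hbb-bt. It was 0.91 between Hba-a1 and Hbb-bt and 0.37 between Hba-a2 and Hbb-bs. Alas2 gave 0.24 to 0.53 with the globins. These values describe libraries that share groups, depth and mitochondrial share, and the groups contribute to each of them.

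The libraries with the highest mitochondrial shares were all low for the beta genes, but PBA3 among them was not low for the alpha genes. The 4 libraries at 63.7% or more mitochondrial reads, HU1 to HU3 and PBA3, were the 4 lowest for the beta pair, at 65.2 to 76.7 FPKM, against 154 to 510 elsewhere. For the alpha pair PBA3 stood at 857 FPKM, above GC1 and GC2 at 287 and 415. GC3, at 49.7%, had the highest value of both pairs, 1399 and 510 FPKM. The part of the mitochondrial share, or of whatever accompanies it, in the globin differences was not tested.

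**Figure D3:**
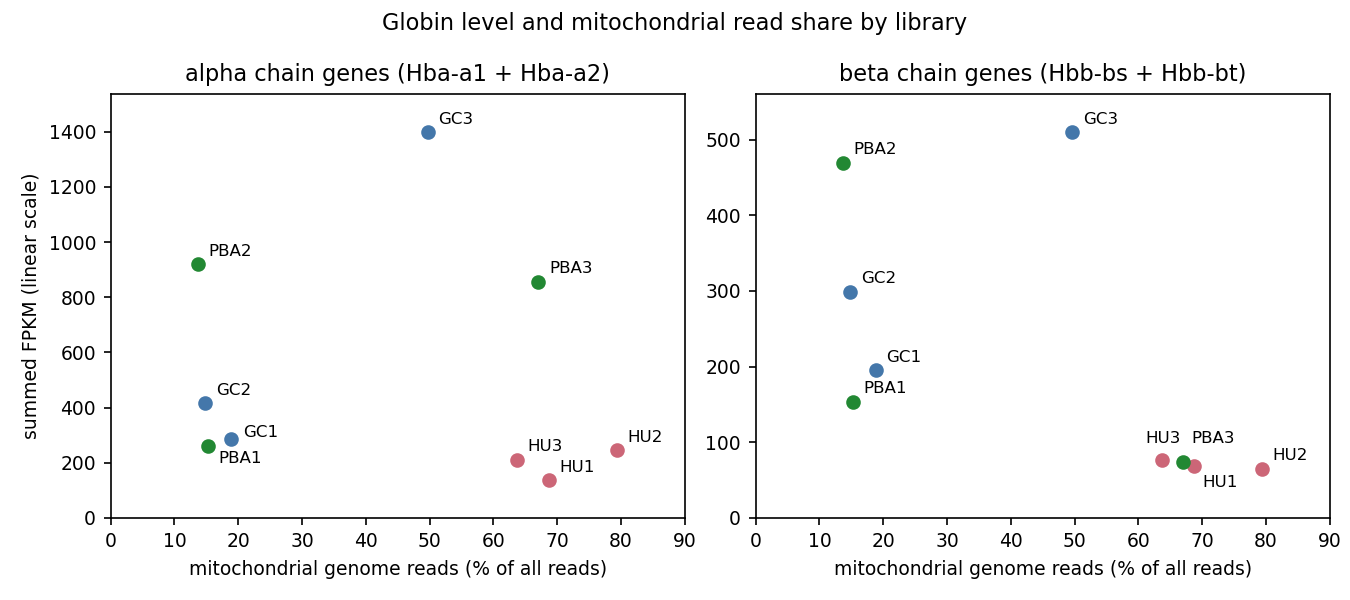
Summed FPKM of the alpha genes and of the beta genes (linear axes) against the percentage of reads from the mitochondrial genome, 1 point per library, coloured by group. HU1, HU2, HU3 and PBA3 share low beta values at 63.7% to 79.3% mitochondrial reads, while PBA3 and GC3 are high for the alpha genes.

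Red cells carry further transcripts besides globin. From the same fit, 4 lists were read: other globins, red cell membrane and blood group genes, late erythroid genes, and erythroid transcription factors. Not all of these are red cell genes. The list of other globins gave 1 tested gene, the stromal Cygb, at 1.81 for unloaded against control. Of 52 genes listed, 19 passed the filter on low values, and none passed limma's adjusted p threshold of 0.05 in any comparison. At an unadjusted p under 0.05 the counts were 6, 3 and 0, against 29.8%, 20.1% and 1.31% of all genes tested, and limma-voom on the recovered reads also called 0. The median log2 difference of the 19 was −0.04 for unloaded against control and 0.16 for treated against unloaded, beside −0.03 and 0.02 over all genes. Most of these 19 are also expressed outside the red cell lineage, such as Cd59a, a complement inhibitor, at 26.9 ± 3.09, 16.5 ± 5.71 and 27.5 ± 7.36 FPKM in control, unloaded and treated libraries.

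The genes most restricted to red cell precursors were at or near 0 in these kidneys. Gata1, the master factor of erythroid differentiation, and Car1, a red cell carbonic anhydrase, had no reads in any library. Klf1, the activator of adult beta globin, had 55, 40 and 6 reads in ground controls, 0, 1 and 0 in unloaded libraries and 36, 41 and 0 in treated libraries. Its log2 difference for unloaded against control was −0.91 ± 0.39 (SE; limma adjusted p = 0.155). Other genes of these lists with few reads differed in pattern, but their counts are not adjusted for depth. Reads outside the mitochondrial genome numbered 1568888 to 3037972 in unloaded libraries and 2887586 in PBA3, against 5780141 to 12893802 in ground controls. Zeros in the shallower libraries therefore give no direction. Epb42, on the membrane list, had 14, 5 and 0 reads, then 0, 0 and 0, then 12, 10 and 0. Myb, on the transcription factor list, had 6, 4 and 0, then 138, 7 and 5, then 0, 0 and 15. Trim58, on the late erythroid list, had reads only in HU2 and HU3, 11 and 9. Ahsp, a chaperone of alpha globin, was not analysed here.

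Slc4a1, the anion exchanger of the red cell membrane, is also made by intercalated cells of the kidney. It stood at 3.57, 5.79 and 3.57 FPKM in ground controls, 2.05, 0.394 and 1.57 in unloaded libraries and 5.55, 4.12 and 2.39 in treated libraries. The unloaded libraries were below all others, with differences of −1.23 ± 0.37 (SE; limma adjusted p = 0.0630) against control and 1.13 ± 0.37 for treated against unloaded (adjusted p = 0.141), neither past the threshold. Tmem14c, a heme precursor carrier, and Bnip3l, which clears mitochondria from reticulocytes, differed by −0.51 ± 0.49 and 0.11 ± 0.26 for unloaded against control. Ldb1, a cofactor of the erythroid factors, differed by −0.16 ± 0.27. Dmtn, a protein of the red cell skeleton, differed by 0.04 ± 0.28, and Lmo2, a further cofactor that endothelium also makes, by 1.26 ± 0.39 (limma adjusted p = 0.0693), the opposite sign to globin. Among other globins, Cygb, the cytoglobin of stromal cells, stood at 3.27 ± 1.24, 14.8 ± 7.91 and 12.5 ± 13.5 FPKM in control, unloaded and treated libraries (1.81 ± 0.63, limma adjusted p = 0.0916, for unloaded against control). Mb, the myoglobin of muscle, had reads only in HU2.

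**Figure D4:**
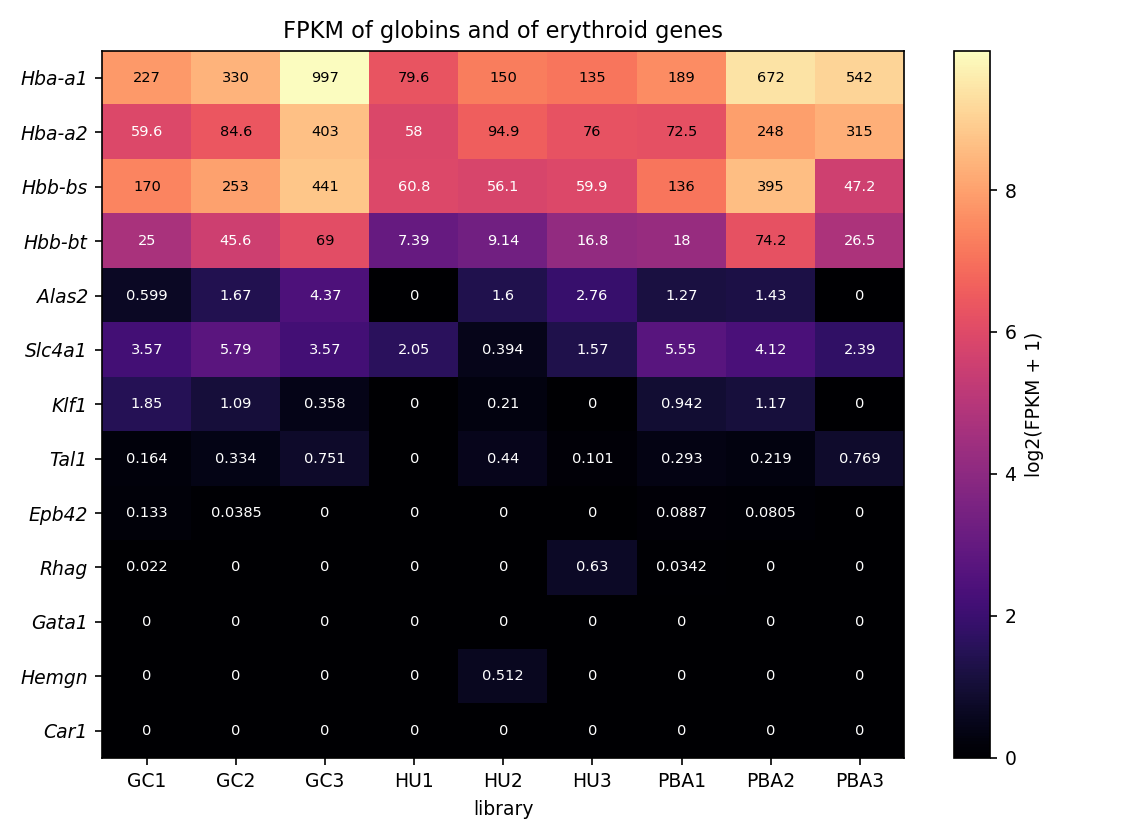
FPKM of the 5 genes and of 8 erythroid genes in each library, with the value printed in each cell and the colour giving log2(FPKM + 1). The globin rows reach 997 FPKM while most erythroid membrane and regulator rows stay below 1 FPKM in every library, apart from Slc4a1 and single values of Klf1.

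Heme synthesis enzymes were lower in unloaded kidney in part. Of 8 enzymes tested, 3 fell against ground control and none rose, beside 4.90% of all genes that fell and 10.2% that passed in either direction. Alad, the second enzyme of the pathway, fell from 56.6 ± 8.08 to 23.9 ± 6.11 FPKM (log2 difference −1.23 ± 0.30 SE, limma adjusted p = 0.0331). Urod, which decarboxylates uroporphyrinogen, fell from 28.1 ± 1.57 to 13.3 ± 2.56 FPKM (−1.04, adjusted p = 0.0470). Ppox, which forms protoporphyrin, fell from 7.19 ± 2.91 to 1.82 ± 1.12 FPKM (−1.57, adjusted p = 0.0372). Alas1, the housekeeping counterpart of Alas2, stood at 9.47 ± 4.31 and 6.39 ± 1.02 FPKM, and Fech, which inserts the iron, at 21.5 ± 4.00 and 23.8 ± 1.14 FPKM, and neither passed. The calls of Alad and Urod were lost when scaled by reads outside the mitochondrial genome, and that of Ppox by limma-voom and with a pseudocount of 0.1. All 3 were lost with no filter, with a replicate block, and without GC1, GC2, GC3 or HU3. With a library left out, the call held in 5 of 9 fits for Alad, 2 of 9 for Urod and 4 of 9 for Ppox. None of the 8 passed for treated against unloaded, where 2.69% of all genes did, and Alad stood at 1.17 ± 0.30 there (adjusted p = 0.0719). These enzymes are made in all nucleated cells, and the kidney segment markers given above were lower in the same libraries, with 5 of the 10 on that list past the threshold. Their part in the enzyme differences was not tested.

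Genes that take up or break down hemoglobin and heme included 12 tested, of which 3 fell in unloaded kidney and none rose, beside 4.90% of all genes that fell and 10.2% that passed in either direction. Amn, which anchors the receptor cubilin in the proximal tubule, fell from 86.3 ± 9.03 to 10.5 ± 11.4 FPKM (−3.43, limma adjusted p = 0.0238). Lrp2, the endocytic receptor megalin, fell from 33.5 ± 3.56 to 8.14 ± 4.31 FPKM (−2.04, adjusted p = 0.0350). Cubn, cubilin itself, stood at 11.2 ± 3.30 and 2.54 ± 1.48 FPKM (−1.83, adjusted p = 0.0546). Blvra, which turns biliverdin into bilirubin, fell from 23.9 ± 4.77 to 7.69 ± 2.61 FPKM (−1.54, adjusted p = 0.0186) and rose to 21.1 ± 5.10 with 4-PBA (1.36, adjusted p = 0.0466), the only gene of the list that passed there. Its 4-PBA call held in 2 of 9 fits with a library left out and in 3 of 8 other settings. Lrp1, the receptor for heme bound to hemopexin, stood higher in all unloaded libraries than in the controls, at 2.31 ± 0.528 and 28.1 ± 18.1 FPKM (2.83, adjusted p = 0.0546), and its gene overlaps Gm16217. Amn, Lrp2 and Cubn are proximal tubule genes, Lrp2 and Cubn are also on the list of kidney segment markers, and 5 of those 10 markers fell in the same libraries. The part of tubule content in these differences was not tested.

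Hmox1, the inducible heme oxygenase, did not pass, at 6.74 ± 1.65, 4.62 ± 2.89 and 7.14 ± 2.04 FPKM in control, unloaded and treated libraries. Hp, the plasma hemoglobin scavenger haptoglobin, was scattered, at 15.9 FPKM in GC2 and 21.7 in HU1 and at 6.29 or less elsewhere. Hpx, the heme scavenger hemopexin, stood at 57.6, 3.43 and 1.77 FPKM in the unloaded libraries and at 0 to 0.473 in all others (2.86 ± 0.92, adjusted p = 0.0749), with most of the mean from HU1. Cd163, the macrophage receptor for the haptoglobin complex, was at 0 in all unloaded libraries and at 0.558 FPKM or less elsewhere.

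Iron transport genes moved in both directions, as did all genes, of which 5.32% rose and 4.90% fell in unloaded kidney, and 1.16% rose and 1.53% fell with 4-PBA. Of 11 tested, Slc40a1, the iron exporter ferroportin, rose from 2.89 ± 0.362 to 8.84 ± 1.50 FPKM in unloaded kidney (1.33, limma adjusted p = 0.0157) and fell to 3.53 ± 0.897 with 4-PBA (−1.13, adjusted p = 0.0441). Slc11a2, a divalent metal importer, fell from 7.46 ± 1.16 to 2.23 ± 0.975 FPKM in unloaded kidney (−1.43, adjusted p = 0.0297). Tfrc, the transferrin receptor that is abundant on erythroid precursors, stood at 4.49 ± 1.67 and 1.69 ± 1.30 FPKM (−1.13, adjusted p = 0.191). When scaled by total reads, Slc40a1 no longer passed in either comparison, though its direction held in every setting, with log2 differences of 0.45 to 1.63 and −1.41 to −0.31. Its call for unloading held in 6 of 9 fits with a library left out and in 7 of 8 other settings. With 4-PBA the call held in only 1 of 9 and 3 of 8.

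Erythropoietin, the kidney hormone that drives red cell formation, had 0 reads in all control and treated libraries and in HU1, and 10 and 13 reads in HU2 and HU3. The Epo locus overlaps 7 other annotated genes, and these reads were too few for a test. Epor, its receptor, stood at 0.915 ± 0.320 FPKM in ground controls, 3.08 ± 0.986 in unloaded and 2.03 ± 1.25 in treated libraries (1.08 ± 0.36 for unloaded against control, limma adjusted p = 0.0861). Jak2, the kinase bound to the receptor, stood at 2.79 ± 0.729, 5.88 ± 0.472 and 3.63 ± 0.873 FPKM (0.88 ± 0.25, adjusted p = 0.0548), and Stat5b, which Jak2 activates, differed by −0.25 ± 0.32. None of the 5 tested genes of this axis passed in any comparison, beside 10.2%, 2.69% and 0.00% of all genes (limma-voom, 0 of the 5). At an unadjusted p under 0.05 the counts were 2, 1 and 0, against 29.8%, 20.1% and 1.31% of all genes tested.

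Markers of other blood cells were read from the same fit, and no test was made of whether they differed from globin. Of 36 platelet, neutrophil, lymphocyte and monocyte or macrophage genes, 15 were tested and 1 (6.67%) passed in each of the first 2 comparisons, beside 10.2% and 2.69% of all genes. Cd3g, a T cell receptor subunit, rose from 0.173 ± 0.141 to 6.08 ± 4.71 FPKM in unloaded kidney (2.39, limma adjusted p = 0.0194), opposite in sign to globin. Nkg7, a granule gene of cytotoxic lymphocytes, was at 0 in all unloaded libraries and rose to 1.98 ± 1.04 FPKM with 4-PBA (adjusted p = 0.0432), on 36, 25 and 18 reads. The Nkg7 call held in 1 of 9 fits with a library left out and in 2 of 8 other settings, and was lost by limma-voom. Pf4, a platelet chemokine, averaged 2.67 ± 1.91, 3.21 ± 3.51 and 3.01 ± 2.45 FPKM in the 3 groups, and Itga2b, a platelet integrin, 1.28 ± 0.374, 1.73 ± 1.13 and 1.46 ± 0.300. S100a8 and S100a9, the neutrophil calprotectin subunits, stood at 0 to 4.59 and 0 to 9.95 FPKM with overlapping groups. The summed platelet list was 3.43 to 6.83 FPKM in controls, 2.21 to 11.2 in unloaded and 3.47 to 7.53 in treated libraries. C1qa, a complement gene of macrophages, averaged 10.4 ± 1.71, 8.85 ± 10.9 and 21.3 ± 6.74 FPKM. Csf1r, the growth factor receptor of these cells, averaged 11.4 ± 2.91, 5.40 ± 1.25 and 10.5 ± 2.61 FPKM (−0.94 ± 0.28 for unloaded against control, limma adjusted p = 0.0637; 0.85 for treated against unloaded, adjusted p = 0.146), with the unloaded libraries below all others. Tyrobp, a signalling adaptor of myeloid cells, stood at 4.32, 5.76 and 7.67 FPKM in controls, 0, 0 and 4.42 in unloaded and 4.44, 8.43 and 20.2 in treated libraries, with differences of −1.95 and 2.55 (limma adjusted p = 0.0943 and 0.0831). Over the 7 monocyte and macrophage genes tested the median difference was −0.54 and then 0.77, the same signs as for globin, and none of the 7 passed (2 and 3 at an unadjusted p under 0.05, and 0 by limma-voom). Of all genes tested, 29.8% and 20.1% had an unadjusted p under 0.05 in these comparisons. The part of these 7 genes in the globin differences was not tested.

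Vessel markers were read in the same way. Of 10 endothelial genes, all tested, 2 rose against control and none fell, beside 5.32% of all genes that rose and 10.2% that passed in either direction: Eng, a receptor of the TGF-beta family, from 32.9 ± 9.53 to 125 ± 22.0 FPKM (1.92, limma adjusted p = 0.0372), and Plvap, a protein of fenestral diaphragms, from 35.5 ± 9.15 to 108 ± 41.0 FPKM (1.55, adjusted p = 0.0411). Pecam1, a junction protein of all endothelium, averaged 4.91 ± 1.24 and 5.87 ± 2.07 FPKM (0.19), Cdh5, the cadherin of endothelial junctions, differed by −0.18 and Tek, the angiopoietin receptor, by 0.09. When scaled by total reads neither Eng nor Plvap passed. With a library left out, the call held in 2 of 9 fits for Eng and 3 of 9 for Plvap, and both were lost without GC3. The list summed to 80.4 to 120 FPKM in controls, 238 to 324 in unloaded libraries and 88.6 to 184 in treated libraries, without overlap between control and unloaded. The part of vessel content in the globin levels was not tested.

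**Figure D5:**
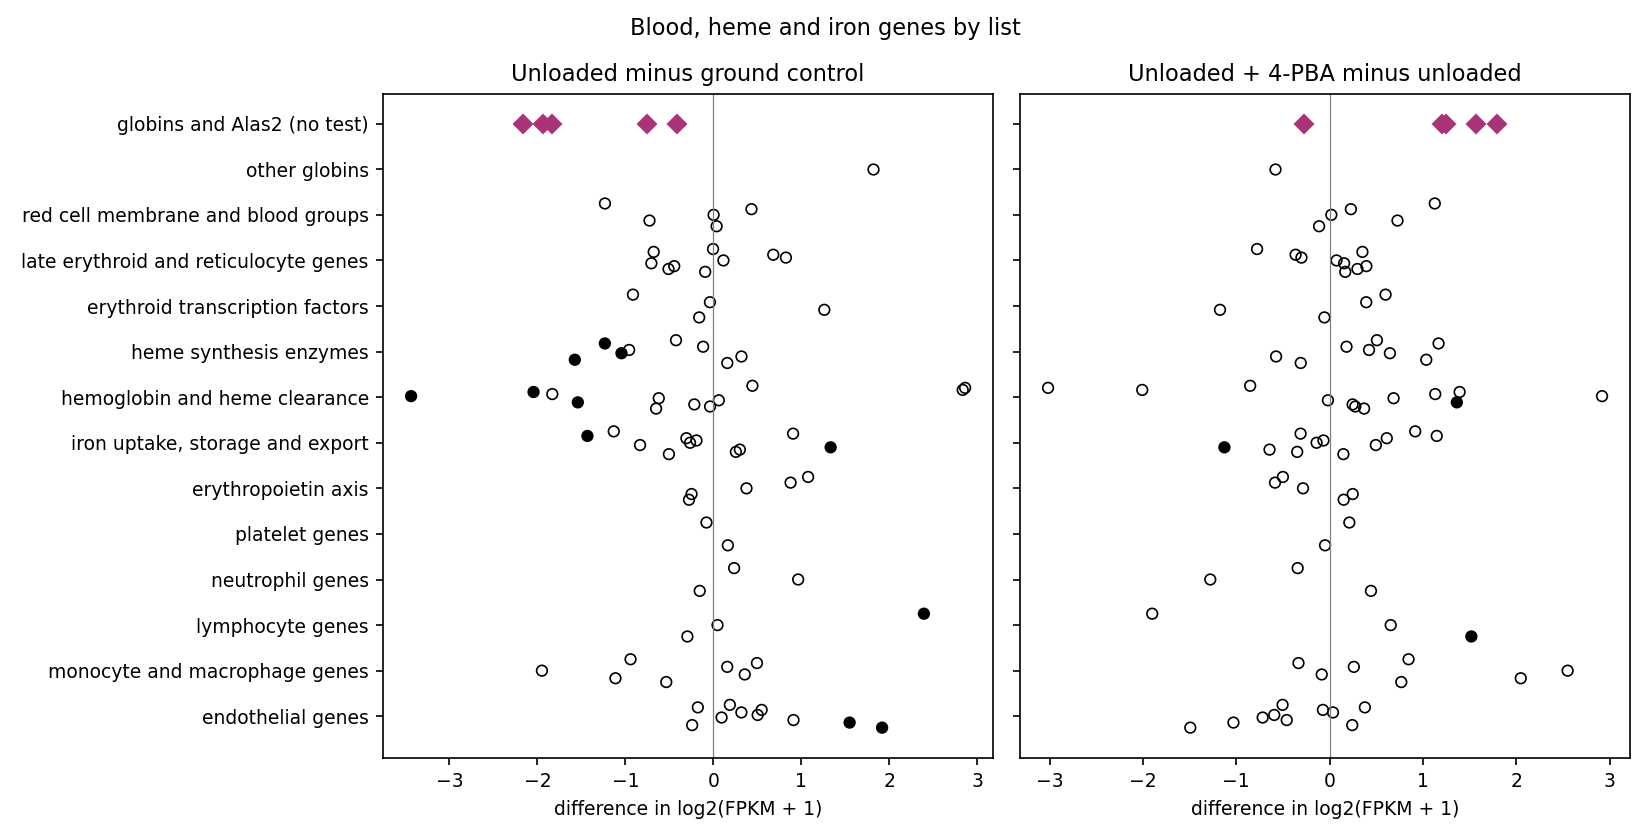
Difference in log2(FPKM + 1) of each tested gene in 13 lists of blood, heme, iron and vessel genes, for unloaded minus control and for treated minus unloaded. Filled circles passed limma's adjusted p threshold of 0.05, open circles did not, and diamonds are the globins and Alas2, shown without a test. No filled circle lies in the erythroid lists, and those to the left of 0 for unloading lie in heme synthesis, clearance and iron transport.

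Over the 13 lists, 80 genes were tested and 11 passed for unloaded against control (13.75%), 4 higher and 7 lower, beside 10.2% of all genes, 5.32% higher and 4.90% lower. For treated against unloaded 3 passed (3.75%, beside 2.69% of all genes), and none passed for treated against control, where limma also called 0 of all 12642 genes, 0.00% (165 at an unadjusted p under 0.05, and 0 by limma-voom). These calls were fragile: the 11 became 0 without GC1, without GC2 or without GC3, 4 without HU3 and 19 without PBA3. The 3 became 0 without any of GC1, GC2, GC3, PBA1 or PBA2, 1 without HU3 and 10 without PBA3.

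The tested genes whose log2(FPKM + 1) tracked the mean of the 5 most closely over the 9 libraries were Cluap1 (Pearson's r 0.947), Tmem191c (0.929), Ascc2 (0.928), Wdr11 (0.926) and Cep78 (0.923). Washc4 (0.919), Stap2 (0.915), Ndufa11 (0.907), Cyth2 (0.904) and Mir466i (0.904) came next. Cluap1 stood at 4.19, 5.57 and 7.17 FPKM in ground controls, 2.79, 4.37 and 3.30 in unloaded libraries and 4.04, 6.31 and 4.93 in treated libraries, which repeats the rank of GC3 and PBA2 seen for globin on a much smaller scale. No gene of the erythroid lists was among these 10. The likeness was taken as the highest of the correlations over libraries that share groups and depth, and is a description.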

How the data were processed

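The authors deposited 1 table of FPKM per gene for 9 mouse kidney libraries. Read processing used HISAT2 on mm10, with cutadapt and CASAVA also named, per the submitters' processing notes. Not given in the sources used here were versions, the counting tool, its strand setting and how multiply matching reads were treated. FPKM times gene length gave whole multiples of 1 value per library for 100% of values (tolerance 0.01 read), so reads were recovered. Deposited FPKM were turned into log2(FPKM + 1), and 12642 genes with at least 1 FPKM in at least 3 libraries were tested with limma 3.58.1 (R 4.3.3, empirical Bayes with trend, all 9 samples in 1 fit of 3 groups, Benjamini-Hochberg adjusted p under 0.05). The script was tested on simulated data. All 5 genes passed the filter. The genes and lists were chosen with earlier results of these data known, so the 5 genes get no p-value.

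Genes named from a list are up to 4 past the threshold in the first 2 comparisons by largest log2 difference, otherwise the 2 with the highest mean FPKM, plus fixed erythroid, heme and blood genes and the 10 genes most alike in pattern. Car1, Epb42, Myb, Trim58, Kap, Apex2, Lrp1, Tyrobp, Cdh5 and Tek were named after their values were seen. Of the fixed genes, 2 are not reported here. No per-sample column was left unused. Alternatives were 2 other pseudocounts, no filter, 2 other scalings, limma-voom on recovered reads, a block for replicate number, only the 6 samples compared, summed pairs and each library left out. Leaving out GC3 and PBA3 together, and summed globin means without either, were added after seeing the data. Coding sequences came from GENCODE and promoters from RefSeq. Python 3.11.15 and matplotlib 3.10.9 were used for summaries and plots.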

Additional observations from a re-analysis of the deposited data

How the results depend on the processing

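The median difference of the 5 genes kept its sign for unloaded against control (−2.28 to −1.21 when each library was left out) and for treated against unloaded (0.99 to 1.89), while treated against control ran from −0.92 to 0.05. Counts over all genes moved more. For unloaded against control, 1292 genes became 238 without a filter on low values, 2339 when scaled by total reads (303 higher, 2036 lower) and 69 to 2360 when each library was left out, while scaling by reads outside the mitochondrial genome gave 871 higher and 471 lower and limma-voom 845 and 479, beside 672 and 620. For treated against unloaded, 340 genes (147 higher, 193 lower) became 145 with a pseudocount of 0.1, 17 without a filter, 722 when scaled by total reads (596 higher, 126 lower), 17 with only the 6 samples compared, 36 to 1320 when each library was left out, and 1118 without GC3 and PBA3. limma-voom gave 128 higher and 321 lower there. Among list genes, the 11 for unloaded against control became 2 without a filter and 0 to 19 when each library was left out. The 3 for treated against unloaded became 0 with a pseudocount of 0.1, without a filter or with only the 6 samples, 1 with a pseudocount of 4, 5 by limma-voom, 8 when scaled by total reads, 10 without GC3 and PBA3, and 0 to 10 when each library was left out. The cause of these shifts was not tested.

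Deviations from the group means gave r of −0.20 to 0.29 between same-numbered libraries of different groups, above 0.1 in 2 of 9 pairs. Pairs with different numbers gave −0.33 to 0.31. With 3 libraries in each group, this check cannot decide whether the numbers pair samples. A replicate block gave 904 and 137 genes for the first 2 comparisons and 10 and 1 list genes, and left the 5 genes' differences as they were. Treated against control gave 0 genes in every setting. Depth limits Alas2, Epo and the red cell regulators most, since 3 reads weigh most in the unloaded libraries and PBA3.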
